A study of Homo sapiens with 9 samples.

Results

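The RNA levels of 10 genes that switch on when the ERK kinases are active and that mostly act back on the same pathway were followed in hTERT_RPE1 cells, an established line of telomerase-immortalised human retinal pigment epithelial cells. The 10 genes are the MAP kinase phosphatases DUSP1, DUSP4, DUSP5 and DUSP6, the Sprouty genes SPRY2 and SPRY4, the Sprouty-related genes SPRED1 and SPRED2, and the ETS transcription factors ETV4 and ETV5. They were chosen by symbol from 26475 symbols in the table, and all 10 were among the 13784 genes with enough counts to be tested. The question was whether they move when PIP4K2B, a kinase of the lipid phosphatidylinositol 5-phosphate, is depleted, or when cells are grown on a soft gel.

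RNA was sequenced from 3 conditions with 3 libraries each, all from cells kept for 24 h on a surface coated with fibronectin. Control cells carried the empty pLKO_1 vector and grew on glass. The sh_PIP4K2B cells carried a hairpin against PIP4K2B and also grew on glass, with 1 library for each of the hairpins #1, #2 and #3, and differences between hairpins are thus part of the spread in sh_PIP4K2B. Soft cells carried the empty vector and grew on hydrogels of 2.3 kPa. A treatment label names a control shRNA for the Control and Soft cells while their titles name the empty vector. Those titles write the vector as pLKO_1, pLKO_2 and pLKO_3 for libraries 1, 2 and 3 in both conditions. The hairpin libraries come from cells that received different hairpins. Whether the 3 Control and the 3 Soft libraries came from separate cultures is not stated for the sequencing, so the p-values measure only the spread between these samples, which may be technical within Control and within Soft.

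Library totals ran from 19217336 to 24020796 counts. PIP4K2B was at 123, 124 and 120 CPM (counts brought to a common library size by the TMM method) in Control, at 48.4, 40.9 and 36.6 CPM with hairpins #1, #2 and #3, and at 119, 122 and 127 CPM in Soft, so each hairpin library stood below all Control libraries. Of 8 markers of retinal pigment epithelium 4 had enough counts to be tested. RPE65 and TYR, which belong to the visual cycle and to pigment synthesis, were listed at 0 in Control, whereas the transcription factors MITF and OTX2 averaged 36.5 and 10.9 CPM. Of 5 markers of other cell types, the blood cell marker PTPRC averaged 0.447 CPM in Control. PECAM1 averaged 0.103 CPM there and EPCAM was listed at 0, whereas PDGFRB and COL1A1, markers of fibroblasts, averaged 27.6 and 130 CPM.

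ERK is the last kinase of the cascade that runs from growth factor receptors through RAS, RAF and MEK. Active ERK turns on genes whose products shut the cascade down again. The DUSP phosphatases remove phosphate from MAP kinases, Sprouty and Spred proteins act upstream at the level of the receptor, RAS and RAF, and ETV4 and ETV5 are ETS factors of the PEA3 family that respond to the pathway and carry part of its transcriptional output. RNA levels of these genes are often read as a record of recent ERK activity, although each of them also answers to other pathways. ERK phosphorylation was not analysed here.

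The promoters of the members that passed the test against Control and have an entry in the RefSeq table (GRCh38.p14) are shown so that the start of each gene can be seen beside its values. These are DUSP1 and the first of 3 windows of SPRY2. Each window holds the 250 bases before and the 50 bases after an annotated start, read 5′ to 3′ on the gene's strand. The window of DUSP1 lies at chr5:172771146-172771445 on the minus strand and that of SPRY2 at chr13:80341077-80341376 on the minus strand. Capitals mark a cyclic AMP response element (CRE, TGACGTCA) and a TATA box (TATAAA).
DUSP1: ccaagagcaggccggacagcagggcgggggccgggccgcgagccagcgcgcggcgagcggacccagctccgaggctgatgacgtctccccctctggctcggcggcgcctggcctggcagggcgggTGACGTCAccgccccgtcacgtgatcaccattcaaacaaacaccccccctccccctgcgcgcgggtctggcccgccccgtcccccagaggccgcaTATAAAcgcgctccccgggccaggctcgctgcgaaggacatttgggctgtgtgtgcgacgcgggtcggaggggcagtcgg
SPRY2: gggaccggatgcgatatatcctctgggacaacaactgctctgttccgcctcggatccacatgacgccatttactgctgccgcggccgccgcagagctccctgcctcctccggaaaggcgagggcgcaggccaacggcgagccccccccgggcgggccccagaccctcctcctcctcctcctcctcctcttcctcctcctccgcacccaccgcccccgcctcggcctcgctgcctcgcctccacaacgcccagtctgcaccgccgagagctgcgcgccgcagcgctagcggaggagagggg
The window of DUSP1 held 1 CRE, beginning 125 bases before the start, and 1 TATA box, beginning 30 bases before it. It also held 4 matches to the shorter TGACG, 2 of them within the CRE, and 4 GC boxes (GGGCGG). The window of SPRY2 held 1 TGACG and 2 GC boxes. Over both strands a CRE was present in 1.85% of the 35116 promoters of this length in the table, a TATA box in 11.5%, TGACG in 24.6% and a GC box in 45.0%. The search also covered an AP-1 site (TGANTCA, in 7.71% of all promoters), an ETS site (CCGGAAG, in 10.3%) and the CArG box (in 1.29%), and neither window shown held these letters. Of the 10 genes, 6 had an entry, with 9 windows in all. The second window of SPRED2 held 2 AP-1 matches and was the only 1 of the 9 to do so, and none of the 9 held the ETS site or the CArG box.

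DUSP1 encodes a nuclear phosphatase that acts on JNK, p38 and ERK and is itself an immediate early gene. It spans bases 172768096 to 172771195 of chromosome 5 (minus strand; GENCODE v44, GRCh38), with 4 exons in its canonical transcript. Its level was 122, 121 and 125 CPM in Control, 81.3, 98.8 and 94.1 CPM with hairpins #1, #2 and #3, and 85.1, 90.5 and 77.5 CPM in Soft. All 6 libraries of the other conditions lay below the 3 Control libraries. In Soft it fell by 0.54 on the log2 scale (SE 0.11, adjusted p = 0.0030, edgeR quasi-likelihood test with Benjamini-Hochberg adjustment), to 0.688 of Control. In sh_PIP4K2B it differed from Control by -0.42 (SE 0.11, adjusted p = 0.027, edgeR), which does not pass the threshold of 0.01. It passed there with DESeq2 (adjusted p = 9.0e-04). Soft and sh_PIP4K2B overlapped, and the difference between them was -0.12 (95% interval -0.36 to 0.12). In these bulk libraries fewer expressing cells and less RNA per cell cannot be told apart.

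DUSP4 encodes another nuclear phosphatase of ERK, JNK and p38 and spans bases 29333064 to 29350684 of chromosome 8 (minus strand). It was at 91.3, 94.1 and 89.0 CPM in Control and at 183, 176 and 186 CPM in Soft. Every Soft library was above every other library of the study, and the level rose by 0.99 on the log2 scale (SE 0.25, adjusted p = 0.0090, edgeR), or 1.99-fold. With hairpins #1, #2 and #3 DUSP4 was at 64.9, 125 and 149 CPM. Hairpin #1 lay below all Control libraries and hairpins #2 and #3 above them, and the fitted change in sh_PIP4K2B was 0.31 (95% interval -0.24 to 0.85; adjusted p = 0.42, edgeR). Without hairpin #1 that change was 0.58 (adjusted p = 0.0028, edgeR) and passed.

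DUSP5, a nuclear phosphatase specific for ERK, spans bases 110497907 to 110511533 of chromosome 10 (plus strand). It was at 72.6, 71.8 and 73.4 CPM in Control and at 30.9, 32.1 and 32.0 CPM in Soft, 0.436 of Control. These were the 3 lowest values of the study and varied little, with an SD of 0.780 CPM in Control and 0.681 CPM in Soft. The log2 fold change of -1.20 had an SE of 0.38 and did not pass the threshold (adjusted p = 0.029, edgeR). All 9 libraries enter 1 estimate of the spread, and the hairpin libraries of this gene ranged 3.49-fold. In a fit of the 6 Soft and Control libraries alone the change was -1.20 with an SE of 0.05 (adjusted p = 4.8e-12, edgeR), in a setting in which 70.7% of all genes passed. With hairpins #1, #2 and #3 DUSP5 was at 60.7, 80.7 and 212 CPM. Hairpin #3 stood at 292% of the Control mean, while hairpin #1 lay below and hairpin #2 above the Control libraries. The fitted change in sh_PIP4K2B was 0.70 (95% interval -0.15 to 1.55; adjusted p = 0.23, edgeR) and without hairpin #3 it was -0.04. Between Soft and sh_PIP4K2B the groups did not overlap, and DUSP5 was lower in Soft by a log2 difference of -1.90 (SE 0.39, adjusted p = 0.0037, edgeR). Without hairpin #3 this difference was -1.17 (adjusted p = 1.2e-04, edgeR), and without Soft replicate 1, 2 or 3 it lay between -1.88 and -1.91 but did not pass (adjusted p = 0.017 to 0.018, edgeR). Nor did it pass in a fit of the Soft and sh_PIP4K2B libraries alone, in which 16.1% of all genes passed.

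DUSP6 is the cytoplasmic phosphatase specific for ERK and the member most often used as a readout of ERK activity. It spans bases 89347235 to 89352501 of chromosome 12 (minus strand), where 873 bases of its transcript overlap exons of an unnamed gene on the other strand. Its level was 52.8, 51.0 and 58.6 CPM in Control, 56.4, 47.0 and 83.4 CPM with hairpins #1, #2 and #3, and 52.8, 58.0 and 54.6 CPM in Soft. All Soft libraries lay within the range of Control, while hairpin #2 lay below that range and hairpin #3 above it. The log2 fold change was 0.03 in Soft (95% interval -0.39 to 0.45) and 0.20 in sh_PIP4K2B (95% interval -0.22 to 0.62). The adjusted p was 0.91 and 0.49 by edgeR. The fitted changes of DUSP4 and DUSP5 in Soft were outside the interval of DUSP6 in the same comparison. Their own intervals, 0.44 to 1.54 and -2.06 to -0.33, overlapped it at the edge, and the difference between these genes was not tested.

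**Figure D1:**
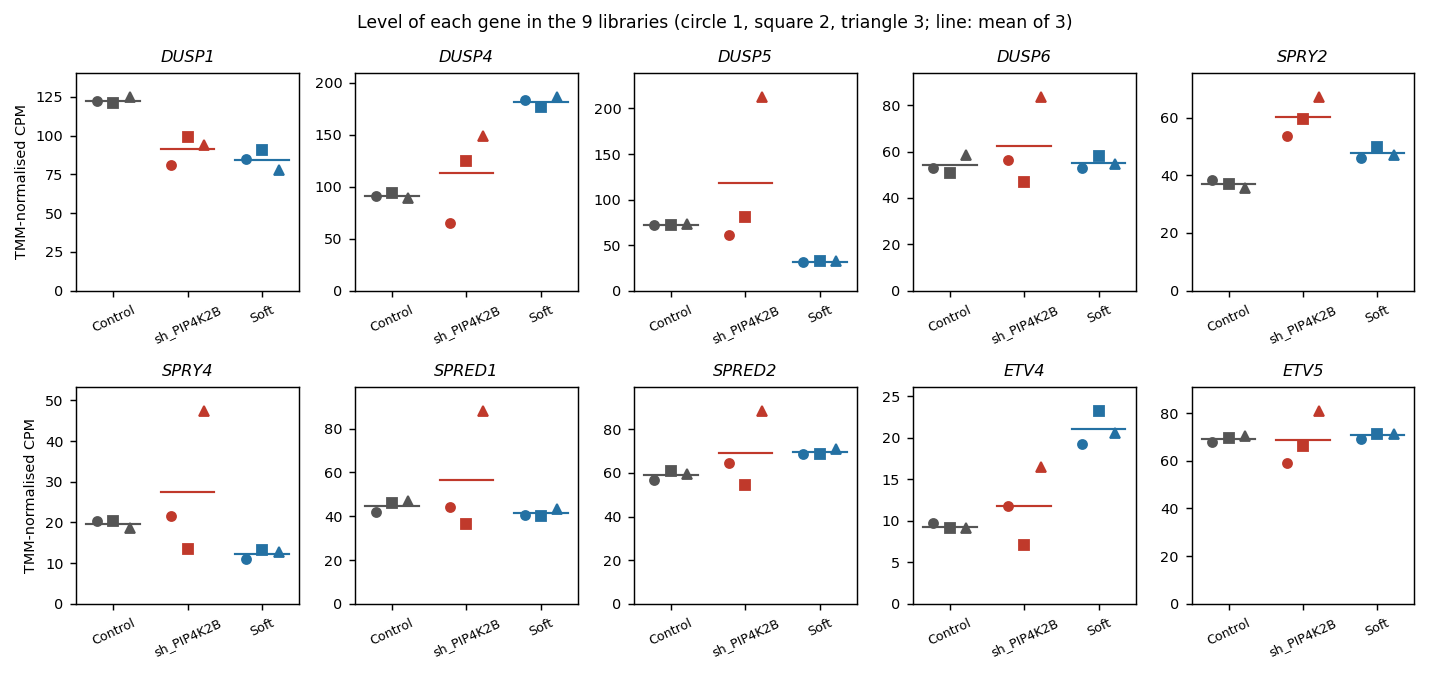
TMM-normalised CPM of the 10 genes in each of the 9 libraries, 1 panel per gene, with each vertical axis starting at 0. Points are libraries, the line is the mean of 3, and circle, square and triangle mark libraries 1, 2 and 3 (hairpins #1, #2 and #3 in sh_PIP4K2B). The Soft points of DUSP4, SPRY2, SPRED2 and ETV4 lie above all Control points and those of DUSP1, DUSP5 and SPRY4 below them. Hairpin #3 is the highest hairpin library in every panel but that of DUSP1.

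SPRY2 encodes a Sprouty protein that is recruited by activated receptors and dampens signalling to RAS and ERK. It spans bases 80335976 to 80341126 of chromosome 13 (minus strand). Its level was 38.3, 36.8 and 35.6 CPM in Control, 53.7, 59.5 and 67.0 CPM with hairpins #1, #2 and #3, and 45.9, 49.95 and 47.0 CPM in Soft. The 3 conditions did not overlap, with sh_PIP4K2B highest, Soft between and Control lowest. In sh_PIP4K2B SPRY2 rose by 0.70 on the log2 scale (SE 0.11, adjusted p = 0.0035, edgeR), or 1.63-fold, and it was the only 1 of the 10 genes to pass in that comparison. It did not pass in a fit of the sh_PIP4K2B and Control libraries alone (adjusted p = 0.035, edgeR), in which only 5 of all genes passed. Nor did it pass without Control replicate 1, 2 or 3 or without Soft replicate 1, 2 or 3, where the adjusted p lay between 0.011 and 0.028 by edgeR and the fold change between 0.68 and 0.73. In Soft the change was 0.37 (SE 0.11, adjusted p = 0.019, edgeR), and the difference between Soft and sh_PIP4K2B was -0.33 (95% interval -0.58 to -0.09; adjusted p = 0.028, edgeR).

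SPRY4, another Sprouty inhibitor, spans bases 142310427 to 142326455 of chromosome 5 (minus strand). It was at 20.3, 20.3 and 18.7 CPM in Control and at 11.1, 13.1 and 12.7 CPM in Soft. All 3 Soft libraries lay below every Control library and every hairpin library. The log2 fold change in Soft was -0.68 (SE 0.37, adjusted p = 0.16, edgeR) and did not pass. A fit of the Soft and Control libraries alone, in which 70.7% of all genes passed, gave -0.69 (SE 0.08, adjusted p = 1.4e-06, edgeR). With hairpins #1, #2 and #3 SPRY4 was at 21.7, 13.5 and 47.5 CPM, from 68.3% to 240% of the Control mean. The fitted change in sh_PIP4K2B was 0.48 (95% interval -0.34 to 1.30) and without hairpin #3 it was -0.17. SPRY2 and SPRY4 thus stood on opposite sides of Control in each Soft library.

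SPRED1 and SPRED2 encode membrane proteins that restrain the activation of RAF by RAS. SPRED1 spans bases 38252836 to 38357249 of chromosome 15 (plus strand), and SPRED2 bases 65310851 to 65432637 of chromosome 2 (minus strand). SPRED1 was at 41.8, 45.8 and 47.1 CPM in Control, 44.4, 36.4 and 88.2 CPM with hairpins #1, #2 and #3, and 40.5, 40.1 and 43.4 CPM in Soft. Hairpin #3 stood at 196% of the Control mean and hairpin #2 below the Control range, and Soft and Control overlapped. SPRED2 was at 56.9, 60.7 and 59.3 CPM in Control, 64.5, 54.6 and 88.5 CPM with the hairpins, and 68.8, 68.5 and 71.0 CPM in Soft. All Soft libraries of SPRED2 lay above all Control libraries, at 116% to 120% of the Control mean, and the log2 fold change of 0.24 did not pass (95% interval -0.12 to 0.59; adjusted p = 0.25, edgeR). In the fit of the Soft and Control libraries alone, in which 70.7% of all genes passed, it was 0.23 (SE 0.05, adjusted p = 3.2e-04, edgeR). For SPRED1 the change in Soft was -0.12 (95% interval -0.74 to 0.50), and in sh_PIP4K2B the changes of SPRED1 and SPRED2 were 0.33 and 0.23, with adjusted p of 0.44 and 0.34 by edgeR.

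ETV4 and ETV5 encode closely related ETS factors, of which ETV4 rose in Soft while the libraries of ETV5 stayed within or near its Control range. ETV4 spans bases 43527844 to 43579620 of chromosome 17 (minus strand). It was at 9.69, 9.09 and 9.09 CPM in Control and at 19.3, 23.2 and 20.6 CPM in Soft, with every Soft library above every other library. It rose by 1.18 on the log2 scale (SE 0.25, adjusted p = 0.0043, edgeR), or 2.26-fold, the largest called change among the 10 genes in either comparison with Control. With hairpins #1, #2 and #3 it was at 11.7, 7.13 and 16.5 CPM, on both sides of Control (change 0.34, 95% interval -0.22 to 0.91). ETV5 spans bases 186046314 to 186110318 of chromosome 3 (minus strand), and 2.27% of the 75-base stretches of its transcript also occur in DGKG. It was at 67.7, 69.7 and 70.6 CPM in Control, 59.0, 66.0 and 81.0 CPM with hairpins #1, #2 and #3, and 69.3, 71.4 and 71.2 CPM in Soft. Soft and Control overlapped, and the change of ETV5 in Soft was 0.03, with a 95% interval of -0.24 to 0.30 that lies below the interval of ETV4, 0.61 to 1.74. In sh_PIP4K2B the change of ETV5 was -0.01 (95% interval -0.28 to 0.26; adjusted p = 0.95, edgeR).

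**Figure D2:**
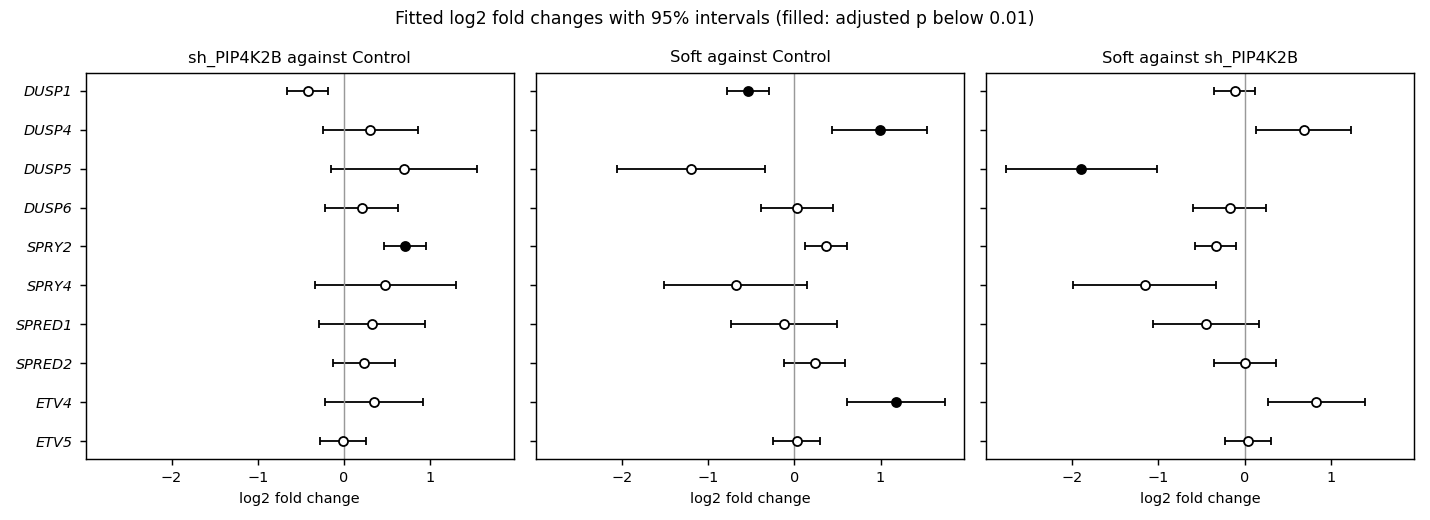
Fitted log2 fold changes of the 10 genes in the 3 comparisons, with 95% intervals as bars and filled points where the adjusted p was below 0.01. In Soft against Control the intervals of DUSP4, SPRY2 and ETV4 lie to the right of 0 and those of DUSP1 and DUSP5 to the left. In sh_PIP4K2B against Control only SPRY2 is filled.

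Counted together in Soft, 3 of the 10 genes passed at 0.01, where 30.6% of all genes tested did. DUSP4 and ETV4 were higher, a direction in which 15.8% of all genes passed, and DUSP1 was lower, a direction in which 14.8% did. The share of members is near that of all genes. Scaling by library size alone moved the share of all calls that were higher from 51.7% to 62.9% and left these 3 calls and their directions in place. The Soft and Control libraries did not overlap for 7 of the 10, with DUSP4, SPRY2, SPRED2 and ETV4 higher and DUSP1, DUSP5 and SPRY4 lower, and they did not overlap for 79.4% of all genes. The median log2 fold change of the 10 was 0.03, with a median of 0.01 over all genes tested. The 3 calls each failed when Control replicate 1, 2 or 3 or Soft replicate 1 or 3 was left out, and without Soft replicate 2 only DUSP1 passed. DUSP4 also failed without hairpin #2 (adjusted p = 0.013, edgeR). Across the 6 fits without a Control or Soft library the fold change lay between -0.59 and -0.48 for DUSP1, between 0.97 and 1.01 for DUSP4 and between 1.10 and 1.24 for ETV4.

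In sh_PIP4K2B 1 of the 10 genes passed, SPRY2, against 5.54% of all genes tested (2.76% higher and 2.77% lower). The hairpin and Control libraries did not overlap for DUSP1 and SPRY2, and they did not overlap for 34.1% of all genes. The median log2 fold change of the 10 was 0.32, with a median of 0.05 over all genes. Both comparisons use the same Control libraries, so their values are set side by side here and not correlated. In the direct comparison of Soft with sh_PIP4K2B 30.0% of all genes passed (14.5% higher and 15.5% lower in Soft), and of the 10 genes DUSP5 did. The groups did not overlap for 5 of the 10, DUSP4 and ETV4 being higher and DUSP5, SPRY2 and SPRY4 lower in Soft, and for 54.0% of all genes. The adjusted p in this comparison was 0.021 for ETV4, 0.044 for DUSP4 and 0.028 for SPRY4 by edgeR.

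The hairpin libraries differed from each other more for these genes than the Control libraries did. Over the 10 genes the median SD of log2 CPM was 0.05 for Control, 0.52 for sh_PIP4K2B and 0.06 for Soft, and over all genes it was 0.08, 0.36 and 0.07. Hairpin #3 gave the highest of the 3 hairpin values for 9 of the 10 genes, all but DUSP1, while 34.3% of all genes were highest there. It lay above every Control library for the same 9 genes, as did 43.9% of all genes. Relative to the Control mean the median log2 ratio of the 10 genes was 0.02 with hairpin #1, -0.16 with hairpin #2 and 0.77 with hairpin #3, and the medians over all genes lay between 0.01 and 0.02. Hairpin #2 gave values below every Control library for 7 of the 10, as it did for 39.4% of all genes. The reduction of PIP4K2B was to 39.6%, 33.5% and 30.0% of Control with the 3 hairpins. With 1 library per hairpin, a difference between hairpins and a difference between libraries cannot be told apart.

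**Figure D3:**
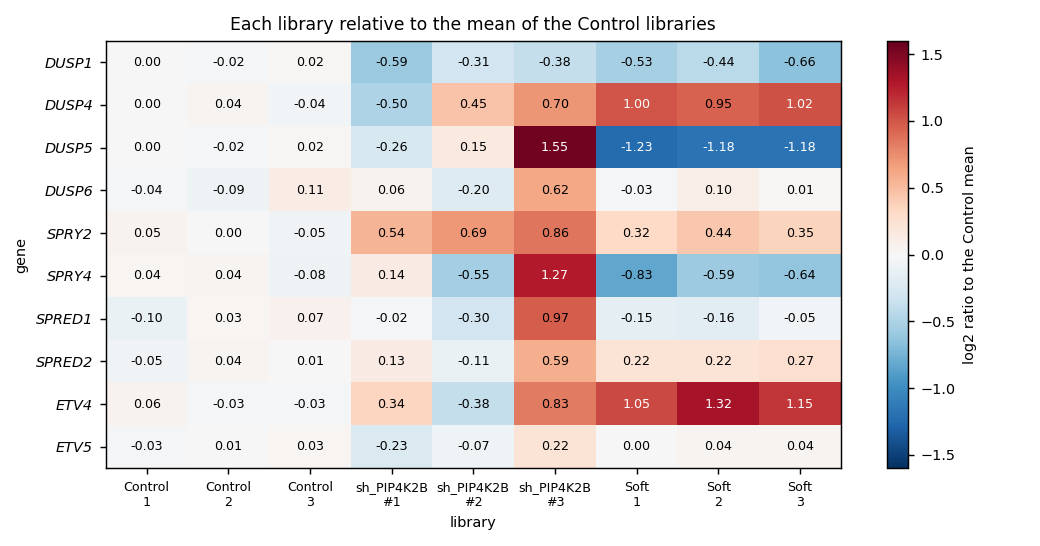
Log2 ratio of each library to the mean of the 3 Control libraries, for the 10 genes (rows) in the 9 libraries (columns), red above and blue below Control. The column of hairpin #3 is red for all genes but DUSP1, and the 3 Soft columns resemble each other in every row, with DUSP5 between -1.23 and -1.18 and ETV4 between 1.05 and 1.32.

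Per unit of transcript length, on a scale of counts per kilobase set to the same total in every library, the Control levels spanned from 155 for DUSP1 to 10.1 for ETV4. DUSP5 followed DUSP1 at 74.4 ± 1.01 (SD, n = 3). ETV5 at 43.1 ± 1.18, DUSP4 at 41.8 ± 1.17 and SPRY2 at 41.0 ± 1.26 had overlapping libraries. DUSP6 at 37.9 ± 2.91 was next and overlapped with DUSP4 and SPRY2, then SPRED2 at 33.1 ± 1.27 and SPRED1 at 15.7 ± 1.07, and SPRY4 at 10.2 ± 0.431 and ETV4 at 10.1 ± 0.314 did not differ beyond their spread. In Soft, DUSP1 at 110.0 and DUSP4 at 86.0 were the highest of the 10 on this scale and SPRY4 at 6.60 was the lowest. DUSP5 had moved from the level next to DUSP1 to 33.6, below SPRY2, ETV5, SPRED2 and DUSP6.

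Over the 9 libraries the profiles of the 10 genes were compared by the root mean square difference of their log2 ratios to Control, where 0 means the same profile. The nearest pair was DUSP6 and SPRED2, at 0.14, and the farthest was DUSP5 and ETV4, at 1.39. DUSP4 was nearest to ETV4 (0.40) and DUSP5 to SPRY4 (0.42). Of all genes tested, the 5 most like DUSP6 by this measure were SNX30 (0.06), STK17B (0.07), NBPF9 (0.08), FMNL2 (0.09) and UBTD1 (0.10). They were chosen on these same libraries, so what they share with DUSP6 is a description, for example UBTD1 at 81.1, 71.5 and 126 CPM with hairpins #1, #2 and #3. In Soft the 5 had log2 fold changes between -0.03 and 0.15.

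Among the 6 other MAP kinase phosphatases, DUSP8, which acts on JNK and p38, rose in sh_PIP4K2B and the other 5 did not pass. Over all genes tested 5.54% passed in that comparison and 30.6% in Soft. DUSP8 was at 3.87, 4.17 and 3.93 CPM in Control and at 18.9, 10.5 and 8.90 CPM with hairpins #1, #2 and #3, without overlap (log2 fold change 1.68, SE 0.31, adjusted p = 0.0077, edgeR). In Soft DUSP2, a nuclear phosphatase of activated immune cells, was lower (adjusted p = 0.0012, edgeR) and the other 5 did not pass. DUSP2 is expressed at little over the limit of counting here, between 0.699 and 1.19 CPM in Control and between 0.137 and 0.191 CPM in Soft, where 3 counts correspond to 0.138 to 0.147 CPM. DUSP8 did not pass without Control replicate 1, 2 or 3 or without Soft replicate 1, 2 or 3. Nor did it pass when the Soft libraries were left out of the fit or with the replicate number as a block. The median log2 fold change of the 6 was 0.19 in sh_PIP4K2B and -0.19 in Soft.

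Of 18 other genes grouped as Sprouty, Spred or feedback inhibitor genes of the pathway from receptor to ERK, 1 passed in sh_PIP4K2B and 7 in Soft. Of the 7, 5 were higher and 2 lower. What each product does to ERK was not tested, so these are counts of listed genes and not of inhibitors shown to act here. Over all genes tested 5.54% passed in sh_PIP4K2B and 30.6% in Soft. SOCS3, a feedback inhibitor of cytokine receptors, rose in both, from 21.1, 19.2 and 20.0 CPM in Control to 56.0, 40.2 and 46.2 CPM with hairpins #1, #2 and #3 and to 50.6, 45.1 and 45.2 CPM in Soft. Its log2 fold changes by edgeR were 1.24 in sh_PIP4K2B (SE 0.13, adjusted p = 9.7e-04) and 1.23 in Soft (SE 0.13, adjusted p = 1.2e-04). In Soft the highest were LRIG1, which promotes the degradation of receptors of the EGF family (1.76, SE 0.22), SPRY1 (1.37, SE 0.17) and TRIB1, a pseudokinase (1.31, SE 0.27), with adjusted p of 2.3e-04, 2.5e-04 and 0.0034 by edgeR. SPRY1 went from 2.75, 3.29 and 2.80 CPM in Control to 6.75, 8.24 and 7.91 CPM, so that of the Sprouty genes SPRY1 rose in Soft, SPRY2 was higher without passing and SPRY4 was lower without passing. RASA2 and RASAL2, which help RAS to hydrolyse GTP, fell by 0.89 and 0.63 on the log2 scale in Soft (adjusted p = 0.0022 and 7.0e-04, edgeR). TRIB1 failed without Control or Soft replicate 1, 2 or 3, and RASA2 without Control replicate 2 or 3 or Soft replicate 2. SOCS3 in sh_PIP4K2B failed without Control replicate 2 and in a fit of the sh_PIP4K2B and Control libraries alone. Without any 1 Control or Soft library 3 of the 18 were higher in Soft. In sh_PIP4K2B 2, 3 and 4 of the 18 were higher without hairpins #1, #2 and #3, and 2 were lower without hairpin #3. The median of the 18 was 0.28 in sh_PIP4K2B and 0.11 in Soft.

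The 15 other genes used as readouts of ERK activity split in Soft as well, with 3 higher, 4 lower and 8 not passing. Their median was -0.26. Over all genes tested 15.8% were higher and 14.8% lower in Soft, and 5.54% passed in sh_PIP4K2B. ETV1, the third ETS factor of the PEA3 family, rose from 22.1, 23.6 and 27.1 CPM in Control to 87.0, 80.3 and 88.5 CPM (log2 fold change 1.81, SE 0.17, adjusted p = 5.9e-05, edgeR). IER3, which is also counted in the preceding list, and PHLDA1 rose by 1.12 and 0.94 on the log2 scale. CCND1, the cyclin that carries cells through G1, fell by 2.20 (SE 0.20, adjusted p = 5.0e-05, edgeR), from a mean of 2377 to 516 CPM. MYC fell by 1.55 (SE 0.31, adjusted p = 0.0030, edgeR) and PHLDA2, a gene that restrains placental growth, fell by 1.11. In sh_PIP4K2B PHLDA2 was the 1 of the 15 that passed and fell by 0.86 (SE 0.15, adjusted p = 0.0067, edgeR), and the median of the list was 0.05. MYC and IER3 in Soft and PHLDA2 in sh_PIP4K2B failed without Control or Soft replicate 1, 2 or 3. IER3 also failed without hairpin #2, while 5 of the 15 rose in Soft without hairpin #1. PHLDA2 in sh_PIP4K2B also failed when scaled by library size alone, when fitted without the Soft libraries, and with the replicate number as a block. In sh_PIP4K2B 2, 3 and 1 of the 15 were higher and 3, 3 and 2 lower without hairpins #1, #2 and #3. ETV1 and ETV4 of the PEA3 family thus rose in Soft, where the change of ETV5 was 0.03.

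Of 23 genes of the cascade itself, from receptor adaptors to ERK and its RSK kinases, 4 rose and 1 fell in Soft. In sh_PIP4K2B 1 rose. The shares over all genes tested were 15.8% higher and 14.8% lower in Soft, and 2.76% higher in sh_PIP4K2B. KSR1, a scaffold that brings RAF, MEK and ERK together, rose in both, its mean going from 11.4 CPM to 22.2 CPM with the hairpins (log2 fold change 0.96, SE 0.11) and to 43.5 CPM in Soft (1.93, SE 0.11), with adjusted p of 9.7e-04 and 5.0e-06 by edgeR. In Soft the adaptor GAB1 (0.96) and the kinase RPS6KA2 (0.86) also rose, and HRAS fell by 0.68. The remaining gene that rose, MAPK3, is not among those the naming rule takes, and it was picked with its values in view. It encodes ERK1 and was at 50.1, 46.3 and 44.2 CPM in Control and at 76.9, 70.8 and 74.4 CPM in Soft, without overlap (log2 fold change 0.66, SE 0.10, adjusted p = 6.2e-04, edgeR), and it passed in every alternative run. GAB1 and RPS6KA2 failed without Control or Soft replicate 1, 2 or 3. KSR1 in sh_PIP4K2B failed without Control replicate 2 and in a fit of the sh_PIP4K2B and Control libraries alone. In Soft the 1 gene that fell became 7, 3 and 6 without hairpins #1, #2 and #3, and in sh_PIP4K2B 4 rose and 1 fell without hairpin #2 and 1 rose and 2 fell without hairpin #3. The median over the 23 was -0.04 in sh_PIP4K2B and -0.14 in Soft. Of 12 immediate early genes 3 rose in each comparison, where 2.76% of all genes rose in sh_PIP4K2B and 15.8% in Soft. ATF3 (2.00), FOSB (1.92) and JUNB (1.74) rose in sh_PIP4K2B, and FOSB (2.41), EGR3 (2.03) and JUNB (1.66) rose in Soft. ATF3 is a gene of the stress response, and FOSB and JUNB encode subunits of the AP-1 factor. In Soft 6 of the 12 rose without hairpin #2 or #3, and JUNB failed without Control replicate 1, 2 or 3. In sh_PIP4K2B all 3 failed without Control or Soft replicate 1, 2 or 3 and without hairpin #3. They also failed when fitted without the Soft libraries and with the replicate number as a block. ATF3 and FOSB also failed without hairpin #1 and when scaled by library size alone, while 5 of the 12 rose without hairpin #2. The median of the 12 was 0.76 and 1.38, but with hairpins #1, #2 and #3 it was 1.16, 0.01 and 1.01.

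**Figure D4:**
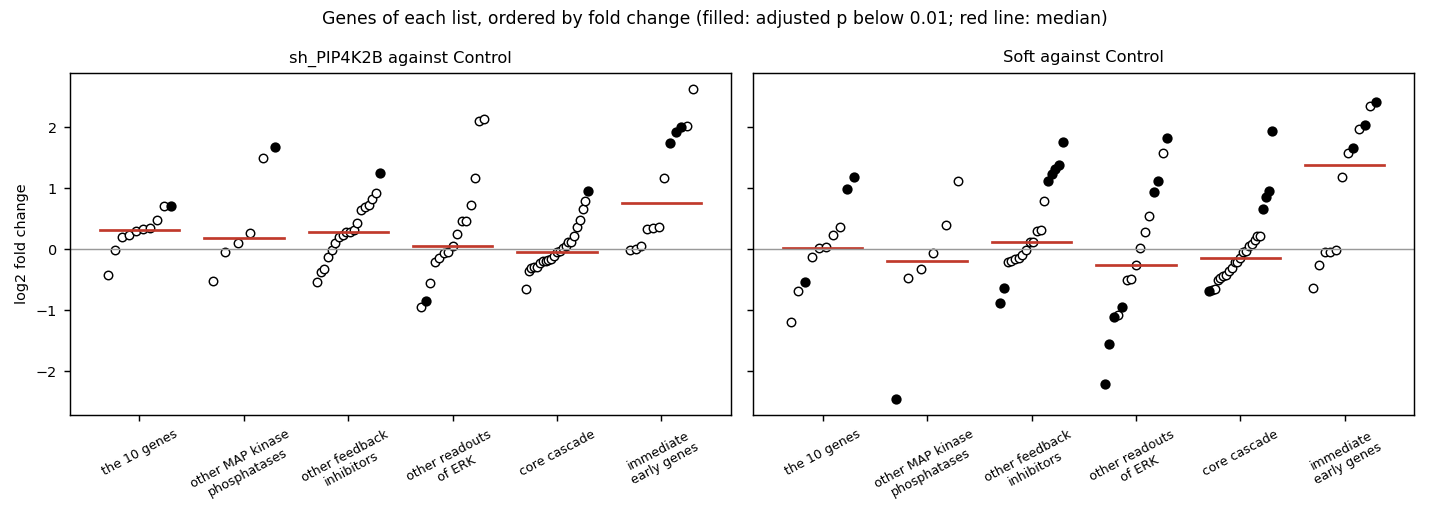
Log2 fold changes of the 10 genes and of 5 gene lists in sh_PIP4K2B and in Soft, each against Control. Every point is a gene, filled where its adjusted p was below 0.01, and the red line is the median of the list. In Soft filled points lie both above and below 0 for the 10 genes, the other feedback inhibitors, the other readouts and the core cascade.

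Other gene groups moved in the same comparisons. Of all genes tested in sh_PIP4K2B, 2.76% passed as higher and 2.77% as lower. There 8 of 20 p53 target genes rose and 14 of 16 genes of DNA replication and mitosis fell. Their median log2 fold changes were 1.23 and -0.83. Without Control replicate 1, 2 or 3 the p53 count was 3, 2 and 4 and the replication count 2, 1 and 4. Without hairpin #1 or #3 the p53 count was 12 and 13, and without Soft replicate 3 the replication count was 9. In a fit of the sh_PIP4K2B and Control libraries alone, in which only 5 of all genes passed, the replication calls all failed. Of the p53 calls only those of BBC3 and BTG2 passed in it. The p53 targets summed to between 1694 and 1741 CPM in Control and to between 2755 and 7865 CPM in the hairpin libraries. Their median log2 ratio was 1.25, 1.42 and 0.53 with hairpins #1, #2 and #3, so the library of hairpin #3, which was highest for 9 of the 10 feedback genes, was the lowest for this list. In Soft 14.8% of all genes passed as lower and 15.8% as higher. There 8 of the p53 targets fell and BBC3 rose, and 9 of the replication genes fell. The count of 9 dropped to 5 or 6 without any 1 Control or Soft library, and the count of 8 to 5 without Soft replicate 2 or 3. Markers of other cell types also differed in Soft, where PDGFRB, PECAM1 and COL1A1 rose and the 5 markers together summed to between 446 and 467 CPM, against 154 to 164 CPM in Control and 211 to 407 CPM in sh_PIP4K2B. COL1A1 failed without any 1 Control or Soft library, without hairpin #3 and with the replicate number as a block. PDGFRB marks pericytes and fibroblasts, PECAM1 endothelial cells and COL1A1 fibroblasts. PECAM1 averaged 0.103 CPM in Control and 4.79 CPM in Soft, and EPCAM averaged 0.0602 CPM there. Of the 4 tested markers of retinal pigment epithelium 2 rose in Soft and 0 fell. OTX2 went from a mean of 10.9 to 37.2 CPM (log2 fold change 1.77, adjusted p = 1.4e-05, edgeR). BEST1 went from 0.147 CPM, near the limit of counting, to 0.719 CPM, and it failed without Soft replicate 1, 2 or 3. MITF was lower and SERPINF1 higher without passing. The 3 epithelial keratins summed to 1921 to 2073 CPM for Control, 708 to 1122 CPM for sh_PIP4K2B and 892 to 943 CPM for Soft. The part of any of these groups in the values of the 10 genes was not tested.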

How the data were processed

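The 9 libraries hold mRNA of hTERT_RPE1 cells, 3 for each of Control, sh_PIP4K2B and Soft. The authors prepared stranded libraries, read pairs of 75 nt, aligned them to GRCh38/hg38 with STAR and deposited 1 table of estimated counts, unscaled and separate for each library; the submitters' notes also name Salmon, with no role, and the annotation is not given in the sources used here. As 12.3% of the deposited values had decimals, each was rounded to a whole count. Totals ran from 19217336 to 24020796, and 3 counts, taken as the floor, were 0.125 to 0.156 CPM.

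Genes were filtered with filterByExpr, normalised by TMM and tested with edgeR 4.0.16 (R 4.3.3; quasi-likelihood F test, Benjamini-Hochberg over 13784 genes, threshold 0.01) in 1 fit of the 9 libraries. The study used DESeq2, run here (1.42.0) as an alternative. The standard error was taken from the F statistic, and intervals are at 95%. Scripts were tested on simulated data. The members and lists were chosen with earlier results of these data known. Each member is named with its values, and of each list at most the 3 highest and 3 lowest fold changes past the threshold per comparison, with PIP4K2B and the 5 genes most like DUSP6. CPM carry no length correction; levels per length use the GENCODE v44 transcript, which 23161 of 26475 symbols had. Shared 75-base stretches were searched in the transcripts of other genes.

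Alternatives were 2 filters on low counts, 3 scalings, DESeq2, a fit of the compared conditions alone, the replicate number as a block, other thresholds and leaving out each library. The deviations of same-numbered libraries from their group means had correlations of -0.10 to 0.04, which cannot settle whether those libraries are paired.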

Additional observations from a re-analysis of the deposited data

Results flagged for a closer look

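DUSP5, the ERK-specific nuclear phosphatase, is listed here because its responses to the 2 conditions differed in the direct test. It stood at 212 CPM with hairpin #3 and at 60.7 and 80.7 CPM with hairpins #1 and #2, and at 30.9 to 32.1 CPM in Soft. The log2 difference of Soft minus sh_PIP4K2B was -1.8962 (SE 0.39, adjusted p = 0.0037, edgeR). Without hairpin #3 it was -1.17, and the Soft libraries stood below every hairpin library. The difference did not pass in a fit of those 2 conditions alone or without Soft replicate 1, 2 or 3. Neither change against Control passed (adjusted p = 0.23 in sh_PIP4K2B and 0.029 in Soft, edgeR).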

How the results depend on the processing

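Each condition had 3 libraries and each hairpin 1, and the effect of depth was not tested. Of the 10 genes SPRY2 was called in sh_PIP4K2B; the count of 1 became 2 with DESeq2 or an adjusted p below 0.05, 0 in a fit of the 2 conditions alone or below 0.001, and 0 to 2 with a library left out. The count of 3 in Soft became 5 with DESeq2, 7 in the fit of the 2 conditions alone, 5 below 0.05, 0 below 0.001 and 0 to 6 with a library left out. The count of 1 between Soft and sh_PIP4K2B became 4, 0, 5 and 0 in the same order, and 0 to 3 with a library left out. Over all genes the calls in sh_PIP4K2B numbered 763, with 1996 by DESeq2, 5 in the fit of the 2 conditions alone and 66 to 2013 with a library left out. In Soft they numbered 4217, with 9601 in the fit of the 2 conditions alone and 2506 to 6373 with a library left out, and between Soft and sh_PIP4K2B 4135, with 2183 and 2350 to 5374. Scaling by library size alone shifted the median log2 fold change of all genes by 0.09 in sh_PIP4K2B and 0.11 in Soft. Under it ETV5 in sh_PIP4K2B turned from -0.01 to 0.0786, a move of the size of that shift.

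Uncalled values changed sign with a library left out. In sh_PIP4K2B the ranges were -0.0401 to 1.0111 for DUSP5, -0.0678 to 0.3675 for DUSP6, -0.1673 to 0.8052 for SPRY4, -0.1539 to 0.5596 for SPRED1 and -0.1515 to 0.0825 for ETV5. In Soft the range was -0.017 to 0.0854 for DUSP6. Between Soft and sh_PIP4K2B they were -0.3436 to 0.0828 for DUSP6, -0.6839 to 0.0207 for SPRED1, -0.1426 to 0.2103 for SPRED2 and -0.0693 to 0.1653 for ETV5. Over all alternatives 443 values for the 10 genes kept direction and side of the threshold, 21 newly passed, 31 no longer passed and 15 changed sign.

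With the replicate number as a block 0 of the 10 genes passed in sh_PIP4K2B, where SPRY2 had a log2 fold change of 0.70 (adjusted p = 0.015, edgeR), 2 passed in Soft (DUSP1 and ETV4) and 1 between Soft and sh_PIP4K2B; over all genes 295 passed in sh_PIP4K2B. Control and Soft titles carry the same numbers, and whether the numbers pair the libraries was not settled.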
